A study of Mus musculus with 13 samples.

Results

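The erythroblastic island is the niche of fetal liver, spleen and bone marrow in which erythroblasts mature around a central macrophage. The 10 genes described here encode its adhesion molecules and the macrophage proteins of the niche: Adgre1, Vcam1, Itga4, Itgb1, Itgav, Maea, Cd163, Siglec1, Spic and Dnase2a. They were chosen by name, by a rule that uses no measured value although earlier results of these data were known, and all 10 were found in each kind of file: among 23337 gene rows of the EKLF+/+ and EKLF-/- libraries, among 35427 genes of the EKLF/GFP libraries and among 54227 genes of the single-cell library. Adgre1 was listed under its older symbol Emr1 in the first of these.

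In an island the central macrophage displays Vcam1, which binds the α4β1 integrin (Itga4 and Itgb1) of erythroblasts, while its αV integrin (Itgav) binds Icam4 on the erythroblast. Maea, also called erythroblast macrophage protein, is an adhesion protein found on both cells and a subunit of a ubiquitin ligase. When erythroblasts expel their nuclei, the macrophage engulfs them and digests their DNA with the lysosomal enzyme Dnase2a, and it recycles haem iron under the control of the transcription factor Spi-C. Adgre1 encodes F4/80, the antigen used here to isolate cells, Cd163 takes up haemoglobin bound to haptoglobin, and Siglec1 (sialoadhesin, CD169) binds sialic acids.

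The study isolated F4/80+ cells from mouse fetal liver at E13.5 and asked what the erythroid transcription factor EKLF (gene Klf1) does in them. Bulk RNA-Seq was made from 3 EKLF+/+, 3 EKLF-/- (null), 3 EKLF/GFP- and 3 EKLF/GFP+ libraries of cells sorted by FACS, and 1 EKLF+/+ library of single cells was made with a droplet 3′ kit. The EKLF/GFP groups are wild type for Klf1 and carry pEKLF-GFP, a single-copy transgene in which the EKLF promoter drives GFP, so GFP marks the activity of that promoter fragment and not EKLF protein. All labels give C57BL/6, whereas the study's methods place the null allele on a 129S4/SvJae background. RNA of the EKLF/GFP+ cells was extracted with a column kit for few cells and RNA of the EKLF/GFP- cells with Trizol, so the kit and the GFP group cannot be told apart. The study's methods give the EKLF/GFP+ RNA a lower integrity number than the EKLF+/+ and EKLF-/- RNA, and name none for EKLF/GFP-. The single cells came from pooled littermate embryos, were selected on magnetic beads in the presence of a peptide that blocks the contact of Icam4 with αV, and count as 1 sample. The study calls the bulk libraries biological replicates but the sources used here do not say which embryos each held, so p-values measure the spread between these libraries.

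The EKLF+/+ and EKLF-/- libraries held 10695514 to 15362161 counts on genes and the EKLF/GFP libraries 22721900 to 28735322 estimated counts. Values of single libraries are given as CPM, counts relative to the library total after scaling by edgeR's TMM factors. Klf1 itself was at 362, 305 and 376 CPM in EKLF+/+ and at 58.7, 64.2 and 57.1 CPM in EKLF-/- (log2 fold change −2.53, SE 0.12, edgeR adjusted p = 7.22e-06), lower in each library labelled null. The sorted populations held RNA of other cell types: in EKLF+/+ libraries 10 macrophage markers summed to 276 to 327 CPM, 8 neutrophil markers to 1693 to 2680 CPM and the 12 erythroid markers to 11155 to 12941 CPM, although the erythroid markers Hba-a1, Hbb-bt and Ahsp were listed at 0 there. In bulk libraries such as these, fewer cells of a type and less RNA per cell cannot be told apart.

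Promoters of 6 of the 10 genes were in the RefSeq table (250 bases before to 50 after the start, build GRCm38.p6). Those of Itga4, Itgav, Spic and Dnase2a are shown because their genes are the integrin chain that binds Vcam1, the integrin chain that binds Icam4, the macrophage regulator and the gene nearest to Klf1, and because EKLF binds CACCC boxes and Spi-C and its relative Spi1 bind GAGGAA. Capitals mark the letters CACCC, which read GGGTG when the motif is on the opposite strand, and the letters GAGGAA, which read TTCCTC on the opposite strand. No match of AGATAA, a motif of erythroid GATA factors found in 11.2% of all promoters, lies in any of the 6. The windows are chr2:79255176-79255475 (+), chr2:83724147-83724446 (+), chr10:88682974-88683273 (-) and chr8:84908505-84908804 (+), each written 5′ to 3′ along its gene.
Itga4: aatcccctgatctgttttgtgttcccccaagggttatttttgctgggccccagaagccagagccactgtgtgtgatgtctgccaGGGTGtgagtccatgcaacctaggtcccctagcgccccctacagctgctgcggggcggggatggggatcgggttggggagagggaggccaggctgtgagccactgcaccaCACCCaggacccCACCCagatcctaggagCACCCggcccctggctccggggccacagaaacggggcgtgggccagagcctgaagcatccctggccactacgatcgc
Itgav: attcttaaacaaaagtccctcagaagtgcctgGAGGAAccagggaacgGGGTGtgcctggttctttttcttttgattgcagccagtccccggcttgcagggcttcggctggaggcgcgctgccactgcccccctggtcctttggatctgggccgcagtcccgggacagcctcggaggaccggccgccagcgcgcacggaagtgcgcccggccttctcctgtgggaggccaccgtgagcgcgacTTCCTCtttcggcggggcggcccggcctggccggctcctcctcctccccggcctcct
Spic: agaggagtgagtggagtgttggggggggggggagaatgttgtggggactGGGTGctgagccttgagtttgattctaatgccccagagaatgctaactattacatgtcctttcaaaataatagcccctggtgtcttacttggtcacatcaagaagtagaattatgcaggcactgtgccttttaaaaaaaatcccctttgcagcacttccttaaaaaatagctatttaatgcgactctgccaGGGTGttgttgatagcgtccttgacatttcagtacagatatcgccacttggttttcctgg
Dnase2a: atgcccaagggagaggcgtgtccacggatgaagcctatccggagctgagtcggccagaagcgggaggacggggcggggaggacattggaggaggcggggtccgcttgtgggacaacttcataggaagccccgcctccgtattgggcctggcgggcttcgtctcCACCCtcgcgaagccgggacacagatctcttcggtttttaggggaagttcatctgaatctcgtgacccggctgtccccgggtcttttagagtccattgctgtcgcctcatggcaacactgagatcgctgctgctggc

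The Itga4 promoter held 4 CACCC matches, of which 3 on the gene's own strand began 56, 44 and 27 bases before the start. Itgb1 and Spic held 2 each, Itgav and Dnase2a 1 each and Cd163 none. Such a match is common, since 57.5% of all 32851 promoters in the table hold at least 1. GAGGAA was found in 28.3% of all promoters, and among these genes it lay in Itgav (2 matches, 1 beginning 7 bases before the start) and in Itgb1 (1 match). A match is a description of letters and not of binding. Dnase2a (chr8:84908560-84922915, GRCm38, GENCODE) begins 3269 bases downstream of the end of Klf1, and Itgb1 lies on the same chromosome at chr8:128685654-128733200.

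Which cells held each side of the island was read from the single EKLF+/+ cells. Of 3096 distinct barcodes 3093 passed a minimum of 200 detected genes, with a median of 18565 counts and 4018 genes per cell, and they fell into 16 clusters formed without the 10 genes. From lists of marker genes 1436 cells in 4 clusters were macrophage-like (46.4% of cells), 623 cells in 3 clusters erythroid-like (20.1%), 285 monocyte-like and 233 neutrophil-like. With 1 sample there is no test, and the intervals given are exact 95% Poisson intervals on summed counts or exact binomial (Clopper-Pearson) intervals on shares of cells, which cover counting error only.

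In these cells 7 of the 10 genes stood 6.37-fold or more higher in macrophage-like than in erythroid-like cells, and the remaining 3, Itga4, Itgb1 and Maea, differed by 2.54-fold or less. Vcam1 was at 613 CPM [603 to 623] in macrophage-like and 32.8 CPM [30.3 to 35.4] in erythroid-like cells, an 18.7-fold difference. Adgre1 was at 545 CPM [536 to 554] against 32.7 CPM [30.2 to 35.3], which is 16.7-fold. Itgav was at 79.9 CPM [76.5 to 83.5] against 5.48 CPM [4.51 to 6.61], or 14.6-fold. The receptors by which the macrophage holds erythroblasts were thus high in the summed macrophage-like cells, as was the antigen used for isolation.

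The macrophage regulator Spic was at 170 CPM [165 to 176] in macrophage-like and 12.2 CPM [10.7 to 13.8] in erythroid-like cells (14.0-fold). Dnase2a, the nuclease for expelled nuclei, was at 111 CPM against 16.9 CPM (6.53-fold), and Siglec1 at 18.7 CPM against 2.94 CPM (6.37-fold). Cd163 was barely detected, with 42 counts over all macrophage-like cells (1.63 CPM [1.17 to 2.20]) and 4 counts over all erythroid-like cells (0.199 CPM [0.0543 to 0.511]). The haemoglobin receptor therefore had a count in 2.23% of macrophage-like cells.

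Itgb1, the β1 chain, was at 251 CPM [245 to 257] in macrophage-like and 99.0 CPM [94.6 to 103] in erythroid-like cells (2.54-fold). Maea was at 52.8 CPM [50.02 to 55.7] against 31.1 CPM [28.7 to 33.6] (1.70-fold). Itga4, the α4 chain that binds Vcam1, was at 85.3 CPM [81.8 to 89.0] against 76.6 CPM [72.8 to 80.6] (1.11-fold). Globin genes took 23.9% of the counts of erythroid-like cells and 0.931% of those of macrophage-like cells, and with them left out of the totals, an alternative chosen after seeing the data, Itga4 turned to 86.1 CPM in macrophage-like and 101 CPM in erythroid-like cells. Which of both classes held more Itga4 thus depended on whether globin counted in the total. All 10 genes were higher in macrophage-like cells by intervals that did not overlap, as were 51.8% of 15451 genes compared, while 16.7% were higher in erythroid-like cells.

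The erythroid side was marked by the partner of αV. Icam4 was at 178 CPM [172 to 184] in erythroid-like cells and 3.37 CPM [2.70 to 4.16] in macrophage-like cells (52.8-fold higher), and Klf1 at 131 CPM [126 to 137] against 2.13 CPM [1.61 to 2.78] (61.6-fold higher). Both Itga4 and Itgb1 had a count in 330 of 623 erythroid-like cells (53.0% [49.0 to 57.0]) and in 847 of 1436 macrophage-like cells (59.0% [56.4 to 61.5]). Vcam1 and Adgre1 were found together in 1117 macrophage-like cells (77.8% [75.5 to 79.9]). Transcripts of the α4β1 receptor were therefore counted in cells of both sides, and those of its ligand Vcam1 chiefly in macrophage-like cells.

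**Figure D1:**
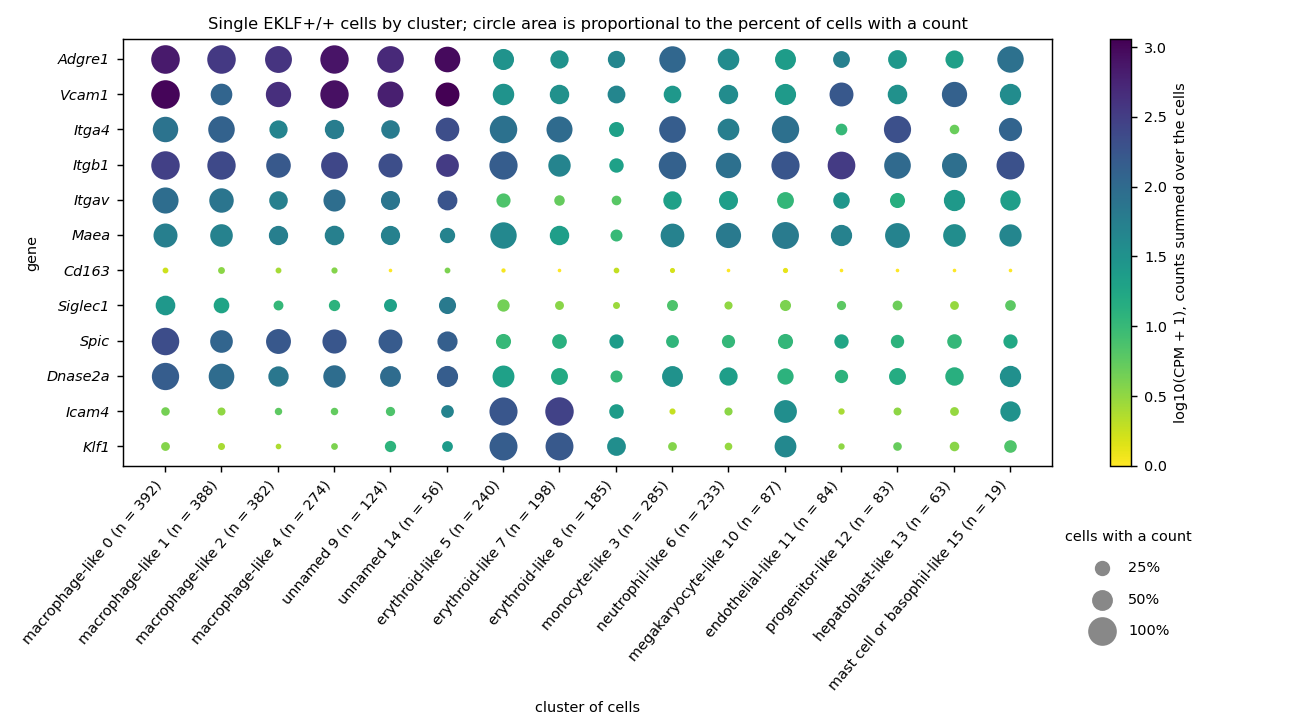
Level of the 10 genes, Icam4 and Klf1 in the 16 clusters of single EKLF+/+ cells. Columns are clusters with their number of cells, colour is log10(CPM + 1) of counts summed over the cells, and circle area is proportional to the percent of cells with a count. Vcam1 reached 1039 CPM in macrophage-like cluster 0 and 116 CPM in macrophage-like cluster 1, whereas Icam4 and Klf1 were highest in the erythroid-like clusters 5 and 7.

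Low counts of Adgre1, Vcam1, Itgav and Spic in erythroid-like cells ran near the level that other macrophage transcripts showed there. In erythroid-like cells Adgre1 stood at 5.99%, Vcam1 at 5.34%, Itgav at 6.86% and Spic at 7.17% of their macrophage-like level, and the C1q chains C1qa, C1qb and C1qc, which are complement components made by macrophages, stood at 5.45%, 5.45% and 5.34%. The share of erythroid-like cells with an Adgre1 count was 41.4% [37.5 to 45.4] and that of neutrophil-like cells, which should hold little, 54.1%, at median depths of 27022 and 23046 counts. After each cell was thinned to 5000 counts, which left out 3 erythroid-like and 5 macrophage-like cells, the Adgre1 shares were 10.8% in erythroid-like, 17.0% in neutrophil-like and 83.4% in macrophage-like cells. For Vcam1 they were 44.6%, 42.5% and 80.8% without thinning and 12.4%, 18.8% and 68.1% with it. After thinning, the shares in erythroid-like cells were thus at or under those in neutrophil-like cells, and the Adgre1 and Vcam1 counts of erythroid-like cells were not read as expression. Where these counts came from was not tested.

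Siglec1 at 15.7% and Dnase2a at 15.3% of the macrophage-like level were above that range in erythroid-like cells, and so were Itgb1 (39.4%), Maea (58.8%) and Itga4 (89.8%). Dnase2a was at 19.8% in neutrophil-like and 27.6% in monocyte-like cells, and Siglec1 at 11.7% and 33.1%. Such levels of Dnase2a and Siglec1 were therefore not particular to erythroid-like cells. Itgav was at 27.2% of its macrophage-like level in neutrophil-like cells, above the 4.55% or less of the C1q chains. In the reverse direction, Klf1 had a count in 3.62% of macrophage-like cells [2.72 to 4.72], which was 4.29% in neutrophil-like and 6.32% in monocyte-like cells at median depths of 14390.5, 23046 and 23844 counts. Thinned to 5000 counts the Klf1 shares were 0.908%, 0.873% and 0.709%, and 41.6% in erythroid-like cells. The thinned share in macrophage-like cells was thus near those of neutrophil-like and monocyte-like cells, and the source of these counts was not tested. Clusters with 75% of both the macrophage and the erythroid markers raised were left out of the macrophage-like class. Those clusters, 9 and 14, had a Klf1 count in 12.1% and 10.7% of cells without thinning. The Klf1 share of macrophage-like cells therefore depended in part on this rule. Itgav and Icam4 were counted together in 44 macrophage-like cells (3.06%) and 75 erythroid-like cells (12.04%).

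Among the 4 macrophage-like clusters Vcam1 varied far more than Adgre1. Vcam1 was at 1039 CPM in cluster 0 (392 cells, led by Cd5l, Marco and Fcna), 861 CPM in cluster 4 (274 cells, led by Marco and Cd5l), 434 CPM in cluster 2 (382 cells, with Hmox1 among its leading genes) and 116 CPM in cluster 1 (388 cells, led by Fcrls, Cx3cr1 and Dab2). Adgre1 was at 702, 777, 395 and 356 CPM in the same order. A macrophage-like population with little Vcam1 was thus present, and its median depth of 20094 counts was close to the 22816 counts of cluster 0. In cluster 1 Itga4 was at 126 CPM, against 76.5, 58.2 and 45.9 CPM in clusters 0, 4 and 2.

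Spic was at 218, 173, 168 and 115 CPM in clusters 0, 4, 2 and 1, Itgav at 93.4, 91.5, 53.7 and 73.6 CPM, and Dnase2a at 145, 93.8, 69.7 and 97.4 CPM. Cluster 0 held the highest level of Spic and Dnase2a and cluster 1 the lowest Spic, while Itgav was nearly equal in clusters 0 and 4. Siglec1 ranged from 9.60 CPM in cluster 2 to 26.0 CPM in cluster 0. Clusters 2 and 4 had shallower cells, with medians of 9628.5 and 9645.5 counts.

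Within the erythroid-like cells the α4β1 chains took their lowest share of counts where globin genes led. Itgb1 was at 145 CPM in cluster 5, led by Mns1, Tmem56 and Cited4, 47.1 CPM in cluster 7, led by Hemgn and Slc4a1, and 19.7 CPM in cluster 8, led by the embryonic globins Hba-x and Hbb-y. Itga4 was at 81.6, 100 and 20.6 CPM and Maea at 41.7, 21.6 and 8.91 CPM in the same clusters. Icam4 was at 174, 282 and 23.0 CPM there, so all 4 genes were lowest in the cluster led by embryonic globins. With globin genes left out of the totals Itga4 was at 83.4, 165 and 84.8 CPM, Itgb1 at 149, 77.7 and 81.0 CPM and Maea at 42.6, 35.8 and 36.7 CPM, so that none of these 3 was lowest in cluster 8. Icam4 was at 178, 466 and 94.9 CPM on that scale and stayed lowest there. Itgb1 and Maea were highest in cluster 5 and Itga4 in cluster 7 on both scales.

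Outside both sides of the island, Itga4 was, among named classes, highest in progenitor-like cells at 202 CPM and in monocyte-like cells at 146 CPM, and lowest in endothelial-like (9.06 CPM) and hepatoblast-like cells (4.03 CPM). Endothelial-like cells instead held the highest Itgb1 of any named class, 338 CPM. Vcam1 was at 166 CPM in endothelial-like and 130 CPM in hepatoblast-like cells, each well over the 25.8 to 37.5 CPM of monocyte-like, neutrophil-like and progenitor-like cells. Maea was the most even of the 10 genes, between 31.1 and 63.3 CPM in the 9 named classes.

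2 clusters stayed unnamed because markers of both sides were raised in them. Cluster 9 (124 cells, median 8281 counts) held Vcam1 at 633 CPM, Adgre1 at 504 CPM and Spic at 154 CPM, with 10 of 10 macrophage and 10 of 11 detectable erythroid markers raised, Klf1 at 11.1 CPM and Icam4 at 6.23 CPM. Cluster 14 (56 cells, median 5205 counts) held Vcam1 at 1135 CPM, Adgre1 at 954 CPM, Itgav at 183 CPM and Siglec1 at 63.5 CPM, with Klf1 at 23.6 CPM and Icam4 at 47.3 CPM. Its median mitochondrial share of counts was 16.7%, against 0.923% to 9.08% in the other clusters, and the part of cell quality in its levels was not tested. Scrublet, which scores barcodes as likely mixtures of cells, marked 0 cells, so no cells were removed as mixtures, and their part in these clusters was not tested. With the 5% of cells of highest score left out, a choice made after seeing the data, the ratio of macrophage-like to erythroid-like level rose to 28.9 for Adgre1 and 26.3 for Vcam1.

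A Klf1 count was found in 52 macrophage-like cells. In them Vcam1 was at 753 CPM [706 to 801] and in the 1384 without a Klf1 count at 606 CPM [596 to 615], while Spic was at 122 CPM [103 to 142] against 173 CPM [168 to 178]. Adgre1 (563 against 544 CPM), Itgav (87.8 against 79.5 CPM), Dnase2a (122 against 110 CPM), Itga4 (90.9 against 85.0 CPM) and Itgb1 (263 against 250 CPM) had intervals that overlapped. The macrophage markers C1qa (1579 [1512 to 1649] against 1488 [1473 to 1504] CPM) and Cd5l (1007 [953 to 1063] against 902 [890 to 914] CPM) were also higher. Csf1r (777 against 752 CPM) overlapped. The part of the macrophage-like cluster that each cell came from was not tested. The cells with Klf1 were also deeper, with a median of 22687.5 counts against 14153.5, and held more of the globin Hba-a1 (8970 against 2934 CPM) and of the red cell anion exchanger Slc4a1 (75.5 against 17.7 CPM), whose part in these values was not tested.

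The genes whose levels ran most like each of the 10 were found by Pearson correlation of log2(CPM + 10) over the 16 clusters among 8839 genes with at least 500 counts, which is a description across clusters of 1 library that share depth and background. Nearest to Spic were Hmox1 (0.99), Slc40a1 (0.99) and C1qc (0.99), of which the first opens haem and the second exports iron. Nearest to Adgre1 were Cfp (0.99), Slc7a8 (0.99) and Slc15a3 (0.99), nearest to Vcam1 were Pde8a (0.97), Ttyh2 (0.96) and Plod1 (0.96), and nearest to Dnase2a were Slc7a8, Cd300a and Sgpl1 (each 0.97 to 0.98). Itga4 ran with Ikzf1 (0.90), Adcy7 (0.90) and Relt (0.89), Itgb1 with Trim8, Sar1a and Klhdc3, Itgav with Mfsd11, Pomk and Lmbrd1, Maea with Nacc1, Adprh and Cops8, and Siglec1 with Tpcn2, Rasa4 and E230029C05Rik. Between the 10 genes the correlation was 0.97 for Adgre1 and Dnase2a, 0.95 for Adgre1 and Spic, and −0.08 for Vcam1 and its receptor chain Itga4. For Cd163, whose counts were few, the nearest were Eno1b, Tlr1 and P2ry13.

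The comparison of EKLF-/- with EKLF+/+ asks whether loss of EKLF changed these genes in F4/80+ cells. None of the 9 genes with enough counts passed the test (edgeR's quasi-likelihood test, two-sided, Benjamini-Hochberg over 12753 genes, adjusted p under 0.05), whereas 20.3% of all genes tested did, 9.72% higher and 10.6% lower in EKLF-/-. At an unadjusted p under 0.05 there were 2, Itga4 and Siglec1, and both passed with DESeq2. In 4 of 9 genes the libraries of the groups did not overlap, a share of 44.4% beside 46.3% of all genes tested. The median log2 fold change of the 9 was −0.17, beside 0.02 over all genes.

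Itga4, a receptor chain for Vcam1, was at 588, 482 and 475 CPM in EKLF+/+ and at 436, 184 and 322 CPM in EKLF-/-. Every EKLF-/- library lay under every EKLF+/+ library, with replicate 2 lowest (log2 fold change −0.71, SE 0.27, edgeR adjusted p = 0.0916). Without EKLF-/- replicate 1 the change was −1.02 with an adjusted p of 0.0157, and without EKLF-/- replicate 2 it was −0.46 with an adjusted p of 0.0487. It also passed with DESeq2 (adjusted p = 0.0281) and with the replicate number as a block (edgeR adjusted p = 0.0477). Erythroid markers summed to 7531, 5014 and 6963 CPM in EKLF-/-, under each EKLF+/+ library, and progenitor markers to 633 to 761 CPM in EKLF+/+ and 482 to 508 CPM in EKLF-/-. Progenitor-like single cells held the highest Itga4 of any named class, 202 CPM, and the part of either cell type in the Itga4 values was not tested.

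Siglec1, the sialic acid receptor, was at 1.94, 5.93 and 8.55 CPM in EKLF+/+ (21, 89 and 103 counts) and at 1.25, 2.22 and 2.47 CPM in EKLF-/-. The groups overlapped through EKLF+/+ replicate 1 (log2 fold change −1.49, SE 0.50, edgeR adjusted p = 0.0652), and without that library the change was −1.88 with an adjusted p of 0.0180. Without EKLF+/+ replicate 3, the highest, it was −1.06 with an adjusted p of 0.192. Vcam1, the macrophage ligand, was at 15.6, 16.9 and 24.4 CPM in EKLF+/+ and 14.3, 15.1 and 13.3 CPM in EKLF-/-. All 3 EKLF-/- libraries were lower, by a margin that did not pass the test (log2 fold change −0.41, SE 0.19, edgeR adjusted p = 0.142). Without EKLF+/+ replicate 3 the change was −0.21 with an adjusted p of 0.353.

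The other integrin chains and Maea moved by small amounts. Itgb1 was at 336, 345 and 382 CPM against 318, 302 and 323 CPM (log2 fold change −0.17, SE 0.10, edgeR adjusted p = 0.242), with groups that did not overlap. Itgav was at 25.2, 32.8 and 26.3 CPM against 25.1, 24.0 and 26.0 CPM, with groups that overlapped (log2 fold change −0.17, 95% interval −0.48 to 0.14). Maea was at 112, 119 and 113 CPM against 125, 140 and 128 CPM, higher in each EKLF-/- library without passing the test (log2 fold change 0.19, SE 0.09, edgeR adjusted p = 0.167).

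The surface antigen and the macrophage regulators overlapped between genotypes. Adgre1 was at 26.8, 33.6 and 32.5 CPM in EKLF+/+ and 31.3, 40.3 and 29.4 CPM in EKLF-/- (log2 fold change 0.12, 95% interval −0.25 to 0.48). Dnase2a was at 28.4, 28.0 and 27.1 CPM against 26.0, 43.9 and 29.7 CPM, with EKLF-/- replicate 2 standing apart (log2 fold change 0.25, 95% interval −0.18 to 0.69). Spic was at 1.02, 1.87 and 3.15 CPM against 1.11, 3.06 and 0.848 CPM (log2 fold change −0.28, 95% interval −1.53 to 0.97). EKLF-/- replicate 2, highest in Adgre1, Dnase2a and Spic of its group, also held the highest sum of the macrophage markers, 434 CPM beside 288 and 276 CPM, and their part was not tested. Cd163 had 1 to 4 counts per library and was not tested.

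On the erythroblast side Icam4, the partner of αV, fell. It was at 131, 116 and 132 CPM in EKLF+/+ and 29.9, 35.6 and 28.4 CPM in EKLF-/- (log2 fold change −2.01, SE 0.12, edgeR adjusted p = 2.58e-05). Of 11 erythroblast-side adhesion genes tested 6 fell and 0 rose (median log2 fold change −0.58, beside 0.02 over all genes), led by the cytoskeletal adducin Add2 (−3.02), Icam4 and the blood group protein Kel (−1.09). Of all genes tested 10.6% fell. The study had reported Add2 as lower in these EKLF-/- cells and describes Icam4 as directly activated by EKLF. The list was written with earlier results known, so its count is a description and not independent evidence. The list is named for the erythroblast's surface, but in single cells 6 of its 13 genes were higher in macrophage-like and 4 in erythroid-like cells, and among those that fell Cd47 (318 against 245 CPM) and Ephb6 (0.853 against 0.0997 CPM) were higher in macrophage-like cells. With globin genes left out of the totals these counts were 4 and 4, and Cd47 was at 321 CPM in both classes. Of 18 scavenging and phagocytic receptors of the macrophage 4 fell and 0 rose (median −0.22), among them Timd4 (−1.90), which binds phosphatidylserine, Stab2 (−1.39) and Cd5l (−1.03).

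Among 10 genes of the ubiquitin ligase that holds Maea, Ypel5 (0.92) and Rmnd5b (0.48) rose and Ranbp10 (−1.10) and Wdr26 (−0.83) fell. Of 14 haem and iron genes (median 0.16) 3 rose, the ferritin chains Ftl1 (1.52) and Fth1 (0.97) and haptoglobin Hp (0.87), and 2 fell, the transferrin receptor Tfrc (−2.26) and Blvrb (−1.09). Of 14 genes of nucleus digestion and the lysosome (median 0.15) 4 rose, with Ctss (1.12), Ctsd (0.79) and Lyz2 (0.79) leading, and 2 fell, Dnase1l3 (−1.44) and Ctsb (−0.55). Interferon-stimulated genes, which rise when undigested DNA accumulates, numbered 18 tested (median −0.32), of which Rsad2 (−3.08) fell and none rose. Rsad2 was at 6.01, 7.93 and 25.3 CPM in EKLF+/+ and 0.973, 2.37 and 1.31 CPM in EKLF-/-, and the list summed to 159, 221 and 564 CPM and to 211, 321 and 228 CPM, so EKLF+/+ replicate 3 stood apart and the summed levels of the groups overlapped.

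Of 11 relatives and regulators around Spic (median 0.16), Id3 (0.94) and Spi1 (0.86) rose and Bach2 (−1.38) and Zeb2 (−0.57) fell. Of 7 further integrin chains (median −0.20) Itgb2 (0.52), the β2 chain of leukocyte integrins, which pairs with neither α4 nor αV, rose and none fell. Among 8 relatives and ligands of Adgre1 and its receptor family (median −0.33), Adgre5 (0.67) rose and Adgrl4 (−1.34), Adgrl1 (−1.24) and Cd55 (−0.91) fell, and of 4 Siglec genes (median 0.09) none passed. These list values are log2 fold changes with an edgeR adjusted p under 0.05. Marker lists moved with them: 4 of 5 granulocyte-monocyte progenitor markers and 2 of 7 monocyte markers rose, 3 of 10 macrophage markers (Cd5l, Mrc1 and Timd4), 4 of 7 endothelial, 4 of 6 progenitor (Flt3, Hlf, Kit and Myb), 4 of 6 mesenchymal and 3 of 9 erythroid markers fell, 3 of 8 neutrophil markers rose and 1 (Mmp8) fell, and their part in the gene values was not tested.

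**Figure D2:**
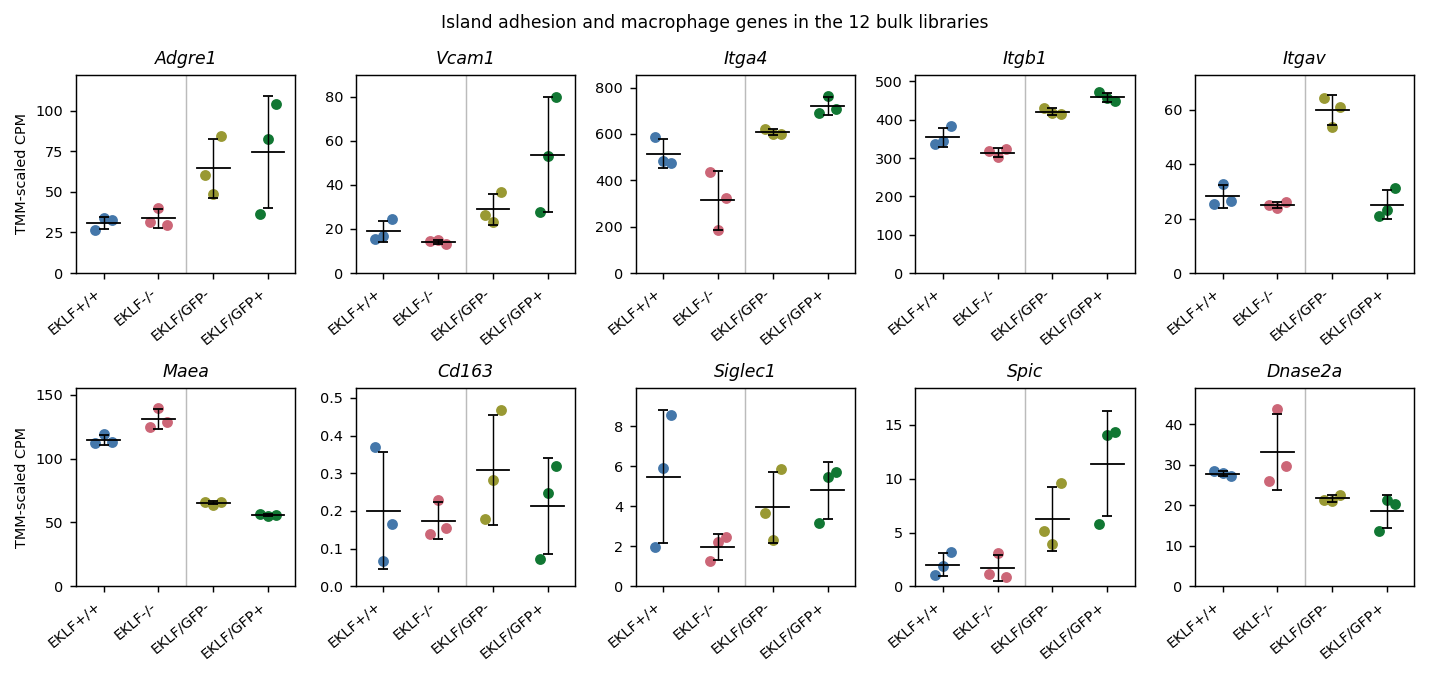
TMM-scaled CPM of each of the 10 genes in the 12 bulk libraries, 1 point per library, with the mean (bar) and SD (whisker) of each group. The vertical line parts libraries made with different counting, so levels are compared within each side. Itgav stood at 53.8 to 64.5 CPM in EKLF/GFP- and 21.1 to 31.1 CPM in EKLF/GFP+.

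The comparison of EKLF/GFP+ with EKLF/GFP- asks which genes mark the F4/80+ cells whose EKLF promoter fragment is active. Of 9 genes tested 3 passed, with Itga4 higher and Itgav and Maea lower in EKLF/GFP+ (edgeR, Benjamini-Hochberg over 14249 genes), a share of 33.3% beside 44.7% of all genes tested. By direction 18.9% of all genes were higher and 25.8% lower in EKLF/GFP+. In 4 of 9 genes, these 3 and Itgb1, the groups did not overlap, beside 55.7% of all genes tested. The median log2 fold change of the 9 was 0.21, beside −0.01 over all genes. Klf1 was at 34.6, 45.7 and 28.6 CPM in EKLF/GFP- and 101, 90.2 and 87.3 CPM in EKLF/GFP+ (log2 fold change 1.35, SE 0.16, edgeR adjusted p = 0.000319).

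Itgav, the macrophage receptor for Icam4, was at 64.5, 53.8 and 61.1 CPM in EKLF/GFP- and at 21.1, 23.2 and 31.1 CPM in EKLF/GFP+. The lowest EKLF/GFP- library was above the highest EKLF/GFP+ library (log2 fold change −1.25, SE 0.15, edgeR adjusted p = 0.000331). The call held in all 14 alternative fits, from −1.42 to −1.10. In the same libraries Icam4 moved the other way, from 18.2, 22.1 and 17.3 CPM in EKLF/GFP- to 52.4, 59.8 and 58.7 CPM in EKLF/GFP+ (log2 fold change 1.57, SE 0.11, edgeR adjusted p = 3.11e-05). Both partners of this contact therefore differed between the sorted groups, in opposite directions.

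Itga4 was at 622, 600 and 600 CPM in EKLF/GFP- and 690, 764 and 707 CPM in EKLF/GFP+, a rise of small size with groups that did not overlap (log2 fold change 0.25, SE 0.08, edgeR adjusted p = 0.0315). Its call was lost without any 1 of 5 libraries, all except EKLF/GFP+ replicate 1, at adjusted p of 0.0732 to 0.0921. Maea was at 65.9, 64.0 and 66.2 CPM against 56.7, 55.2 and 55.8 CPM (log2 fold change −0.23, SE 0.07, edgeR adjusted p = 0.0266), and its call was lost without EKLF/GFP+ replicate 1, 2 or 3 or EKLF/GFP- replicate 1 at adjusted p of 0.0658 to 0.103, and its change was −0.07 with limma on the authors' normalized counts. Itgb1 was at 430, 417 and 414 CPM against 471, 456 and 448 CPM, higher in each EKLF/GFP+ library without passing the test (log2 fold change 0.13, SE 0.07, edgeR adjusted p = 0.181).

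Vcam1 was at 26.5, 23.3 and 36.8 CPM in EKLF/GFP- and 27.9, 53.0 and 80.1 CPM in EKLF/GFP+. The groups overlapped through EKLF/GFP+ replicate 1 (log2 fold change 0.89, SE 0.35, edgeR adjusted p = 0.0697), and without that library the change was 1.24 with an adjusted p of 0.00499. Without EKLF/GFP+ replicate 3, the highest, it was 0.50 with an adjusted p of 0.243. Spic was at 5.18, 3.98 and 9.58 CPM against 5.77, 14.1 and 14.4 CPM (log2 fold change 0.87, SE 0.41, edgeR adjusted p = 0.126), and without EKLF/GFP+ replicate 1 at 1.23 with an adjusted p of 0.0226. That library held the least macrophage RNA, with the 10 macrophage markers summing to 143 CPM beside 306 and 393 CPM in the other EKLF/GFP+ libraries and 349, 294 and 419 CPM in EKLF/GFP-.

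Adgre1 ranged more widely within EKLF/GFP+ than between the groups, at 60.3, 48.8 and 84.5 CPM in EKLF/GFP- and 36.6, 82.5 and 104 CPM in EKLF/GFP+ (log2 fold change 0.21, 95% interval −0.62 to 1.03). Siglec1 was at 3.67, 2.32 and 5.85 CPM against 3.16, 5.47 and 5.73 CPM (log2 fold change 0.28, 95% interval −0.55 to 1.11). Dnase2a was at 21.4, 21.0 and 22.6 CPM against 13.7, 21.4 and 20.4 CPM (log2 fold change −0.23, 95% interval −0.61 to 0.15). These 3 genes overlapped between the groups, and EKLF/GFP+ replicate 1 was the lowest of its group for each of them. Cd163 had 2 to 11 estimated counts per library and was not tested.

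**Figure D3:**
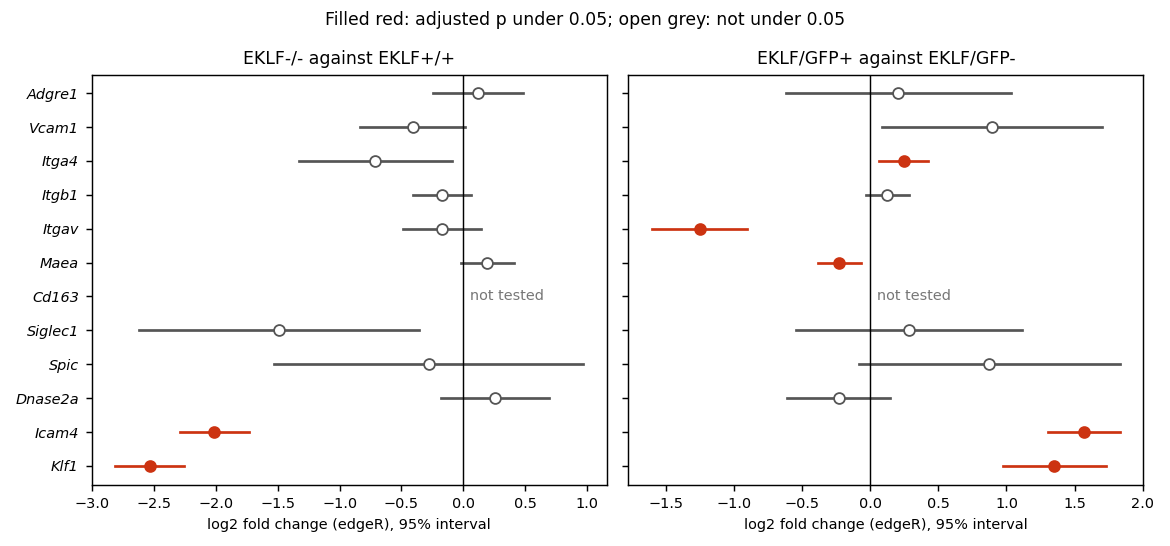
Log2 fold change with its 95% interval from edgeR for the 10 genes, Icam4 and Klf1, with EKLF-/- against EKLF+/+ on the left and EKLF/GFP+ against EKLF/GFP- on the right. Filled red points have an adjusted p under 0.05. Icam4 and Klf1 fell in EKLF-/- (−2.01 and −2.53) and rose in EKLF/GFP+ (1.57 and 1.35), and among the 10 genes Itga4, Itgav and Maea are filled, in the right panel.

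Markers of other cell types moved with the GFP sort. In EKLF/GFP+ 7 of 7 monocyte, 8 of 8 neutrophil, 5 of 5 granulocyte-monocyte progenitor, 6 of 6 progenitor and 7 of 7 lymphoid markers tested fell and 11 of 11 erythroid markers rose, while 2 of 10 macrophage markers (Cd68 and Csf1r) and 4 of 7 endothelial markers fell. Of 8 megakaryocyte markers 7 rose, and the list summed to 136 to 156 CPM in EKLF/GFP- and 216 to 303 CPM in EKLF/GFP+. Megakaryocyte-like single cells held Klf1 at 42.04 CPM and Icam4 at 34.8 CPM, with 7 of 11 erythroid markers raised. The 7 monocyte markers summed to 633 to 720 CPM in EKLF/GFP- and 33.6 to 46.1 CPM in EKLF/GFP+, and the erythroid markers to 4766 to 6329 CPM and 10265 to 12617 CPM. None of the macrophage, monocyte or neutrophil markers was at 0. Itgav was at 20.2 CPM in monocyte-like and 21.7 CPM in neutrophil-like single cells, lower than in macrophage-like cells, and Itga4 at 146 CPM in monocyte-like cells. The part of these cell types in the Itgav, Itga4, Maea and Icam4 values, and in those of the gene lists below, was not tested.

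To set the macrophage genes beside the amount of macrophage RNA, each was also divided by the summed CPM of the 10 macrophage markers, which include none of them. This ratio was chosen after the values were seen, 24 such ratios were computed, and 3 against 3 libraries cannot give an exact permutation p below 0.1. Vcam1 was at 7.61%, 7.94% and 8.78% of the marker sum in EKLF/GFP- and at 19.5%, 17.3% and 20.4% in EKLF/GFP+, a ratio of 2.35 with groups that did not overlap (exact two-sided permutation p = 0.1, adjusted p = 0.3 over the 24). Spic was at 1.48%, 1.35% and 2.29% against 4.02%, 4.60% and 3.65% (ratio 2.40), and Adgre1 at 17.3%, 16.6% and 20.2% against 25.5%, 26.9% and 26.5% (ratio 1.46), both with the same exact permutation p = 0.1. Siglec1 also did not overlap (ratio 1.68), whereas Dnase2a (ratio 1.16) and Itgav (ratio 0.59) did.

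Beside the 3 C1q chains alone, which do not include the fallen Cd68 and Csf1r, the ratios of EKLF/GFP+ to EKLF/GFP- were smaller for all 6 genes. Vcam1 was 1.52 times and Spic 1.58 times as high in EKLF/GFP+ and Itgav 0.37 times, all 3 without overlap. Adgre1 (0.95) and Siglec1 (1.09) overlapped, so their difference rested on the choice of markers. In EKLF-/- the only ratio without overlap was Vcam1 beside the 10 markers (0.72 times EKLF+/+), which overlapped beside the C1q chains (0.76).

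**Figure D4:**
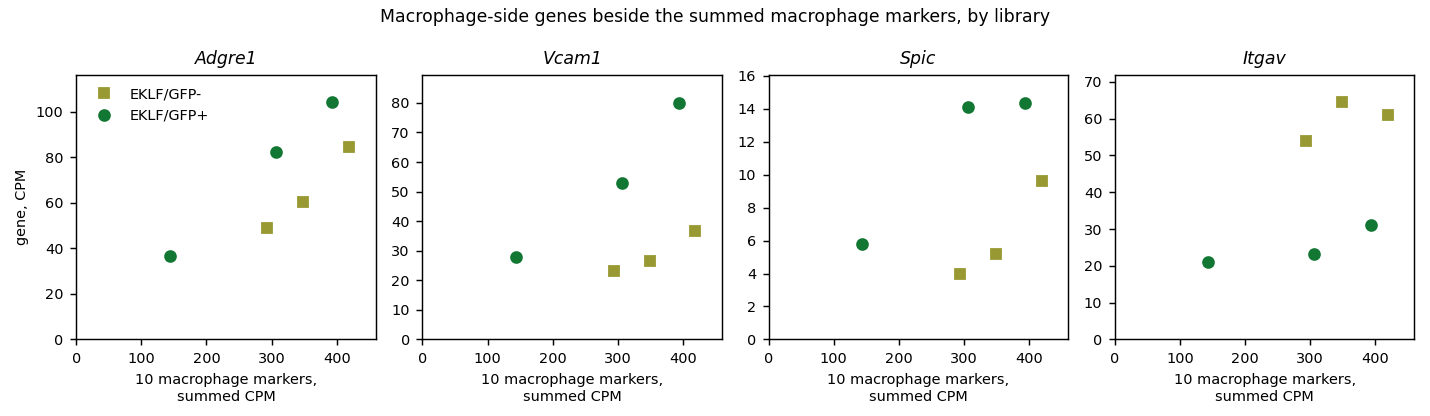
CPM of Adgre1, Vcam1, Spic and Itgav (vertical axes) against the summed CPM of the 10 macrophage markers (horizontal axes), 1 point per EKLF/GFP library. For Adgre1, Vcam1 and Spic the EKLF/GFP+ circles lie above the EKLF/GFP- squares at a like marker sum, and EKLF/GFP+ replicate 1 lies leftmost at 143 CPM.

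Of 10 erythroblast-side adhesion genes 5 rose in EKLF/GFP+ (median log2 fold change 0.63), with Kel (1.60), Icam4 (1.57) and Add2 (1.55) leading, and 3 fell, Ephb4 (−1.19), Ephb6 (−1.16) and Cd44 (−0.65). In single cells Add2 was at 115 CPM in erythroid-like and 3.14 CPM in macrophage-like cells and Kel at 48.1 and 3.14 CPM. Cd44 stood the other way, at 350 CPM in macrophage-like and 35.4 CPM in erythroid-like cells. Of 18 scavenging and phagocytic receptors 7 fell and 0 rose (median −0.44), with the integrin chains Itgax (−2.81), Itgal (−1.76) and Itgam (−1.998) leading, and 17 of 19 such genes were higher in macrophage-like than in erythroid-like single cells. All monocyte, neutrophil and granulocyte-monocyte progenitor markers tested fell in the same libraries. The part of those cell types in these falls was not tested.

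Among 7 further integrin chains, of which some can pair with α4 or αV and others cannot (median −0.78), the β3 chain Itgb3 (0.64), which pairs with αV, rose, and 5 fell, with Itga6 (−1.53), Itgb2 (−1.50) and Itga5 (−0.79) leading. None of these 3 pairs with α4 or αV, since Itga5 and Itga6 are α chains that pair with β1 and Itgb2 is the β2 chain of leukocyte integrins. Itgb7, which pairs with α4, and Itgb5, which pairs with αV, also fell. Itgb3 was at 1.16 CPM in macrophage-like and 0.847 CPM in erythroid-like single cells and was among the leading genes of the megakaryocyte-like cluster, whose markers were higher in EKLF/GFP+, and their part in the Itgb3 values was not tested. Of 10 genes of the Maea complex 6 rose (median 0.48), led by Ranbp10 (1.29), Ypel5 (1.01) and Gid8 (0.67), and Ranbp9 (−0.41) fell beside Maea itself. Ranbp10 and Gid8 were higher in erythroid-like single cells (78.2 and 44.1 CPM) than in macrophage-like ones (25.1 and 24.1 CPM). The reverse held for Ypel5 (26.4 against 31.7 CPM), and in all 6 of 10 complex genes were higher in macrophage-like and 4 in erythroid-like cells. With globin genes left out of the totals, again an alternative chosen after seeing the data, these counts were 3 and 5, Ypel5 was at 34.7 against 32.0 CPM with overlapping intervals, and Wdr26 turned from 158 against 180 CPM to 208 in erythroid-like against 182 CPM in macrophage-like cells.

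Of 15 haem and iron genes 10 rose (median 0.81), among them Slc11a2 (1.41), Blvrb (1.36) and Hmox1 (1.25), and 3 fell, Hp (−3.78), Lrp1 (−0.998) and Hmox2 (−0.87). Hmox1, nearest to Spic across clusters, was at 2489 CPM in macrophage-like and 178 CPM in erythroid-like single cells. Blvrb, a biliverdin reductase, was at 557 and 1172 CPM and the iron transporter Slc11a2 at 19.4 and 38.9 CPM, both higher in erythroid-like cells. Of the 15 haem and iron genes 3 in all were higher in erythroid-like and 10 in macrophage-like cells. Of 11 relatives and regulators around Spic 6 fell and 0 rose (median −0.88), with Irf8 (−3.58), Irf4 (−3.37) and Spi1 (−2.56) leading. Of 14 genes of nucleus digestion and the lysosome (median −0.61) Ctsb (0.69) and Ctsd (0.39) rose and 8 fell, with Lyz2 (−3.20), Ctss (−1.41) and Xkr8 (−1.21) leading. Of 19 interferon-stimulated genes (median −1.09) Rsad2 (2.37) rose and 11 fell, and of 7 Siglec genes (median −2.06) 6 fell, with Siglech (−3.69), Siglece (−2.61) and Cd33 (−2.52) leading. Around Adgre1 (median −0.19) 1 of 9 genes rose, Cd55 (1.04), and 4 fell, with Adgrl4 (−3.23), Adgrg3 (−2.90) and Adgre5 (−1.20) leading. All monocyte, neutrophil, granulocyte-monocyte progenitor and progenitor markers tested fell in the same libraries. The part of those cell types in the lists of this paragraph was not tested.

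Per length, with each gene's transcripts summed, Itgb1, Itga4 and Maea had the 3 highest means in every bulk group. In EKLF/GFP- the mean TPM, which is scaled to transcript length and library total, was 190 for Itgb1, 108 for Itga4, 88.0 for Maea, 47.2 for Adgre1, 23.2 for Dnase2a, 20.8 for Itgav, 6.92 for Spic, 5.41 for Vcam1, 0.393 for Siglec1 and 0.0437 for Cd163. Dnase2a and Itgav, and Spic and Vcam1, overlapped across the 3 libraries, and the other neighbours in this order did not. In EKLF/GFP+ the order was Itgb1 (187), Itga4 (126), Maea (70.9), Adgre1 (52.8), Dnase2a (17.4), Spic (11.6), Vcam1 (9.96) and Itgav (8.29), and each neighbour from Maea to Itgav overlapped the next. On transcripts annotated as protein coding alone this order changed. Mean TPM was then 53.0 for Itgb1, 47.2 for Adgre1, 31.0 for Maea and 23.6 for Itga4 in EKLF/GFP-. In EKLF/GFP+ it was 50.5, 52.8, 24.6 and 26.2, and Itgb1 and Adgre1 overlapped in both groups.

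In EKLF+/+ the CPM per kilobase of exon were 86.9 for Itgb1, 43.6 for Maea, 36.8 for Itga4, 9.57 for Adgre1, 5.17 for Dnase2a, 2.62 for Itgav, 2.14 for Vcam1, 0.766 for Siglec1, 0.524 for Spic and 0.0368 for Cd163. Exon length merged all annotated exons of a gene: 8870 bases for Vcam1, 5389 for Dnase2a, 3841 for Spic and 3238 for Adgre1. The coding transcripts Vcam1-201, Dnase2a-201 and Spic-201 have 3469, 1715 and 1763 bases, so the order depends on the length used. Itgav and Vcam1 overlapped, as did Siglec1 and Spic. In EKLF-/- Itga4 was at 22.5 and Maea at 49.8 CPM per kilobase. The receptor Itga4 was thus above its ligand Vcam1 in each of these F4/80+ groups with all transcripts summed. On coding transcripts alone the gap was smaller, with mean TPM of 23.6 for Itga4 and 5.39 for Vcam1 in EKLF/GFP- and of 26.2 and 9.94 in EKLF/GFP+.

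Of the TPM of Itga4, Itgb1 and Maea only part came from transcripts annotated as protein coding. Salmon, which assigns reads to transcripts, gave the coding transcript Itga4-201 21.8% ± 0.7 of the Itga4 TPM in EKLF/GFP- and 20.8% ± 0.8 in EKLF/GFP+ (SD, n = 3), and the shorter processed transcript Itga4-203 73.3% and 73.5%. By reads Itga4-201 held 62.3% and 60.8%. The TPM of the coding transcript was 25.4, 23.0 and 22.4 in EKLF/GFP- and 27.0, 25.1 and 26.4 in EKLF/GFP+, and the groups overlapped.

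Coding transcripts held 27.7% ± 7.7 and 27.0% ± 3.6 of the Itgb1 TPM and 35.2% ± 0.5 and 35.3% ± 6.1 of the Maea TPM in EKLF/GFP- and EKLF/GFP+, and a transcript annotated for nonsense-mediated decay, Itgb1-202, held 66.8% and 68.8% of the Itgb1 reads. Dnase2a was at 73.4% ± 0.8 and 64.3% ± 6.8 and Spic at 86.0% ± 4.5 and 82.3% ± 5.5. Vcam1 and Itgav were at 98.7% to 99.8% on average, and Adgre1 and Siglec1 at 100%. By TPM, coding transcripts thus held most of Adgre1, Vcam1, Itgav, Siglec1, Spic and Dnase2a and less of Itga4, Itgb1 and Maea. Much of the coding TPM of Adgre1, Itgav and Spic lay in short transcripts. In EKLF/GFP- Adgre1-204 (342 bases) held 53.4% of the Adgre1 TPM on 6.40% of reads. Itgav-204 (444 bases) held 72.0% on 8.20%, and Spic-203 (646 bases) 82.6% on 61.3%. The long coding transcripts Adgre1-201 and Itgav-201 held 18.0% and 22.3% of TPM, near the share of Itga4-201. By reads, which weigh long transcripts more, coding transcripts held 59.4% to 63.0% of Itga4, 51.5% to 58.7% of Maea and 17.7% to 22.8% of Itgb1 in the 6 libraries, and the shares of Spic (52.9% to 77.0%) and Dnase2a (55.2% to 77.2%) overlapped those of Itga4 and Maea. The share of Siglec1 TPM in Siglec1-201 was 73.0%, 95.3% and 52.9% in EKLF/GFP- and 46.2%, 46.9% and 48.8% in EKLF/GFP+, on 66 to 144 estimated counts per library. Estimated shares of transcripts that overlap in sequence are uncertain.

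**Figure D5:**
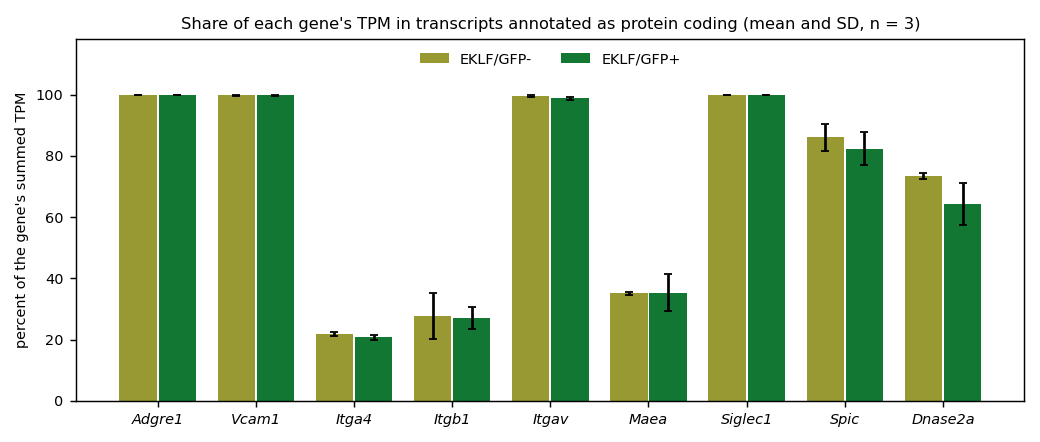
Percent of each gene's summed TPM in transcripts annotated as protein coding, mean (bars from 0) and SD (whiskers) of 3 EKLF/GFP- and 3 EKLF/GFP+ libraries. Cd163 is left out for its few reads. Itga4, Itgb1 and Maea lie under 40% and Adgre1, Vcam1, Itgav and Siglec1 over 98%. On average most of the coding TPM of Adgre1, Itgav and Spic lay in a single short transcript of each gene.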

How the data were processed

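F4/80+ fetal liver cells were measured in 12 bulk RNA-Seq libraries and 1 single-cell library. Per the study's methods and the submitters' processing notes, the authors aligned with STAR (mm10) and counted with HTSeq for EKLF+/+ and EKLF-/-, which gives the deposited raw counts per gene; unassigned rows (no feature: 38.7 to 44.2% of counted reads) were left out. In the first EKLF+/+ file 5 further sample columns repeated other libraries and were not used. The EKLF/GFP libraries were quantified by the authors with Salmon on GRCm38 transcripts, as estimated counts and TPM per transcript (115898 of 116546 transcripts joined to GENCODE genes, 35427 genes, estimated counts rounded). The authors' deposited normalized counts (signal, 15957 genes) served only an alternative, and the authors' columns of log2 fold changes and p-values were not used. Single-cell counts are deposited alevin estimated counts (95.7% of values above 0 were exactly whole).

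edgeR 4.0.16 (R 4.3.3; TMM, at least 10 counts in 3 libraries, quasi-likelihood test, checked on simulated data) was the main test; DESeq2 1.42.0, limma 3.58.1 (pseudocounts 1 and 10), other scaling, no filter, globin genes left out, a replicate block and leaving out each library were alternatives. Cells were clustered with Seurat 5.3.0 (4000 variable genes without the 10 members, 30 components, resolution 0.8), scored by Scrublet, and summed per class or cluster. A cluster was named when at least 3 markers of a class were raised 2-fold over the median cluster, unless 75% of both the macrophage and the erythroid markers were. For 1918 older symbols the current one was used. Named genes are the 10 members, Klf1, Icam4, up to 3 genes per list and direction that passed, averaged 10 or more normalized counts and changed most, and the 3 genes most alike each member. The members, lists and tests were chosen with earlier results of these data known.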

Additional observations from a re-analysis of the deposited data

How the results depend on the processing

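For EKLF-/- against EKLF+/+, where 0 of 9 genes passed, 2 passed with DESeq2 (Itga4 and Siglec1), 1 with no filter on low counts (Siglec1), 2 with a replicate block, and 0 to 1 when each library was left out in turn. For EKLF/GFP+ against EKLF/GFP-, where 3 passed, 5 did with DESeq2 (Itgb1 and Spic added) and 1 to 4 when each library was left out, with 1 (Itgav) without EKLF/GFP+ replicate 2, EKLF/GFP+ replicate 3 or EKLF/GFP- replicate 1. Same-numbered libraries did not deviate together (correlations −0.019 to 0.019 and −0.148 to 0.018), so the numbers were not taken as pairs; under the block 2 genes passed in the GFP comparison. Log2 fold changes turned sign only where small, and ranged with each library left out, in EKLF-/-, from −1.06 to 0.149 for Spic (0.149 without EKLF+/+ replicate 3, 0.0344 without EKLF-/- replicate 3), −0.0501 to 0.207 for Adgre1 and −0.0161 to 0.403 for Dnase2a (both negative only without EKLF-/- replicate 2), and in EKLF/GFP+ from −0.102 (without EKLF/GFP+ replicate 3) to 0.566 for Adgre1 and −0.00715 (without EKLF/GFP- replicate 2) to 0.661 for Siglec1. Among the alternatives Itga4 passed in 8 of 14, Maea in 5, Vcam1 in 3 and Spic in 3 of the GFP comparison, and Itga4 and Siglec1 in 4 of 11 each of EKLF-/-; no cause was tested. In single cells 9 to 10 of the 10 genes were higher in macrophage-like cells under every alternative. Cd163 had too few counts for a test in bulk, and the part of depth or of low expression in this was not tested.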
